A study of Homo sapiens with 4 samples.

Results

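The peroxiredoxins are 6 genes, PRDX1 to PRDX6, of the 57905 genes in the deposited count table of A549 cells. They were taken by gene symbol, and the family was selected on the counts of PRDX2, which were already known to differ between the libraries, so all values below are a description. Each of the 6 genes had 1 entry in the table and all 6 passed a mean level of at least 1 CPM (counts scaled to a common library total) over the 4 libraries, as did 13966 genes in all. PRDX2 passed only through the library in which it is high. In these unreplicated libraries the members are described by role, with PRDX2 first.

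A549 is an established cell line from a human lung adenocarcinoma. The 4 libraries came from a scramble control (sc), cells with an shRNA against DCBLD2 (shDCBLD2), an empty vector control and the library labelled OE (DCBLD2 overexpression). The shRNAs were carried by pLV-H1-EF1α-puro lentiviral vectors, and the DCBLD2 coding sequence by pLV-EF1-MCS-IRES-Bsd, with blasticidin selection. The vector of the scramble control is not given in the sources used here. Each condition had 1 library of poly(A) RNA, with no treatment or time course, and the sources used here do not state which hairpin the shDCBLD2 library carried.

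Peroxiredoxins are enzymes that reduce hydrogen peroxide and other peroxides through a reactive cysteine. In most of them the oxidized cysteine forms a disulfide that thioredoxin reduces again, and thioredoxin is in turn kept reduced by thioredoxin reductase with NADPH. PRDX1 and PRDX2 work mainly in the cytosol, PRDX3 in mitochondria and PRDX4 in the endoplasmic reticulum. PRDX5 is found in mitochondria, peroxisomes and the cytosol, and PRDX6 uses glutathione in place of thioredoxin. A549 cells carry a KEAP1 mutation and are known for high activity of NRF2, a transcription factor that drives many genes of this system.

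Totals per library ran from 16601633 to 21537283 counts on genes, the library labelled OE being the smallest. Levels in CPM were scaled by TMM factors, a correction for composition, and every interval given is an exact 95% interval (Clopper-Pearson) that covers counting error only. With 1 library per condition there is no replicate check and no p-value, and each comparison is of these libraries rather than of the conditions. Genes were called at a difference of 2-fold or more with an interval that excluded no change. DCBLD2 itself stood at 504 CPM in sc, 197 CPM in shDCBLD2, 434 CPM under the empty vector and 242 CPM for the library labelled OE, so that its transcript went against this last label. All 6 epithelial markers (EPCAM, CDH1, KRT7, KRT8, KRT18 and KRT19) and all 8 genes abundant in A549 were above 3 counts in every library, the former summing to between 12573 and 19220 CPM. Most of this sum was KRT7, KRT8 and KRT18. EPCAM ran only from 1.21 CPM in shDCBLD2 to 5.33 CPM in the library labelled OE, and CDH1 from 10.2 to 66.8 CPM in the same libraries. EPCAM and KRT19 were called higher in the library labelled OE against the empty vector. CDKN2A, a cell cycle inhibitor at 9p21 that A549 is known to have lost by deletion, had 0 counts in sc, shDCBLD2 and the empty vector and 2104 counts in the library labelled OE. This library therefore went against its labels in both genes. For the 6 members the comparisons that do not use it are also given.

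All members but PRDX2 were abundant in every library, and PRDX2 only in the library labelled OE. Compared per length, as deposited FPKM values, PRDX1 was the highest in sc (653), followed by PRDX5 (400), PRDX4 (97.5), PRDX6 (94.3) and PRDX3 (64.7), with PRDX2 at 0.17. By FPKM, PRDX1 ranked 47 and PRDX5 ranked 88 among the 13966 genes in sc. The counting intervals of PRDX4 (94.3 to 100.8) and PRDX6 (91.5 to 97.2) overlapped in sc, and those of all other neighbours in this order did not. The same order held in shDCBLD2 and with the empty vector, where the intervals of PRDX4 and PRDX6 were apart in the former and overlapped in the latter. In the library labelled OE the order was PRDX5 (594 FPKM), PRDX1 (483), PRDX4 (130), PRDX6 (110), PRDX2 (60.6) and PRDX3 (36.2). The counting intervals of neighbours did not overlap there. These orders, and the shares below, rest on the deposited gene lengths, which the counting intervals do not cover. By CPM, which leaves length out, PRDX1 (740) was above PRDX5 (533) in the library labelled OE. There PRDX2 (128.9, 123.4 to 134.5) overlapped with PRDX3 (124.3, 119.0 to 129.8). In sc, PRDX3 (216) and PRDX6 (218) were above PRDX4 (181) by CPM.

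**Figure D1:**
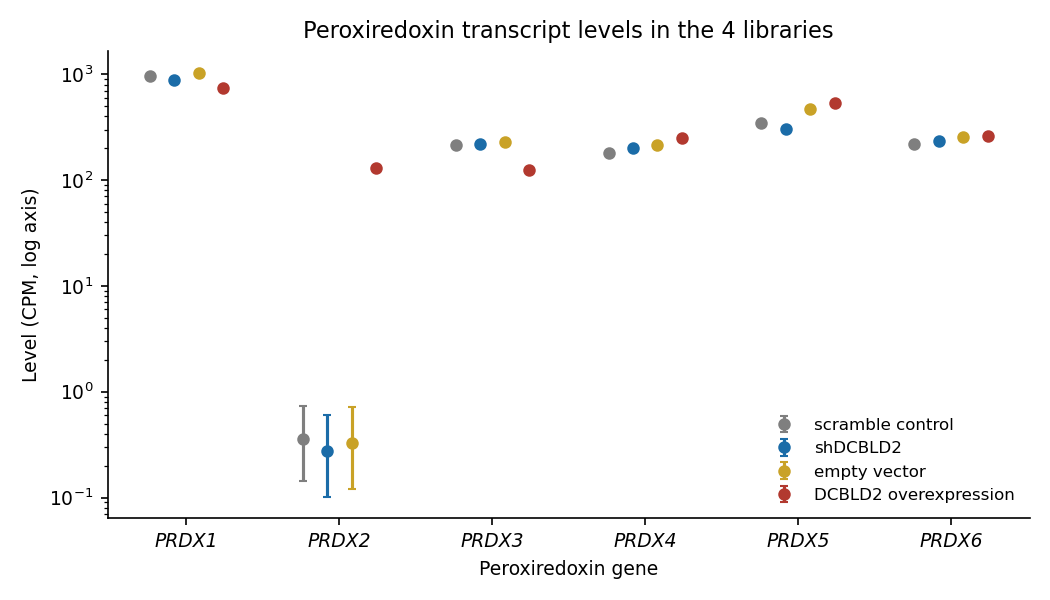
Level of each peroxiredoxin gene in CPM (log axis) in the 4 libraries. Points are single libraries, bars are 95% counting intervals, and the 3 low points of PRDX2 lie between 0.278 and 0.358 CPM against 128.9 CPM in the library labelled OE.

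Summed over the family, FPKM came to 1310 in sc, 1192 in shDCBLD2, 1468 under the empty vector and 1413 for the library labelled OE. The sum thus lay between those of the control libraries in the last of these, while its make-up differed from all others. PRDX1 provided 49.9% of the family FPKM in sc, 48.9% in shDCBLD2, 45.4% under the empty vector and 34.2% for the library labelled OE. PRDX5 provided 30.6%, 28.5%, 35.4% and 42.0% in the same order. The ratio of PRDX1 to PRDX5 FPKM was 1.63 in sc, 1.72 in shDCBLD2, 1.29 under the empty vector and 0.814 for the library labelled OE, the only library below 1. PRDX2 provided 4.29% there and at most 0.0130% elsewhere. The cytosolic pair PRDX1 and PRDX2 summed to 668 FPKM under the empty vector and to 544 FPKM for the library labelled OE, so the FPKM that PRDX2 added there was smaller than the difference in PRDX1.

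**Figure D2:**
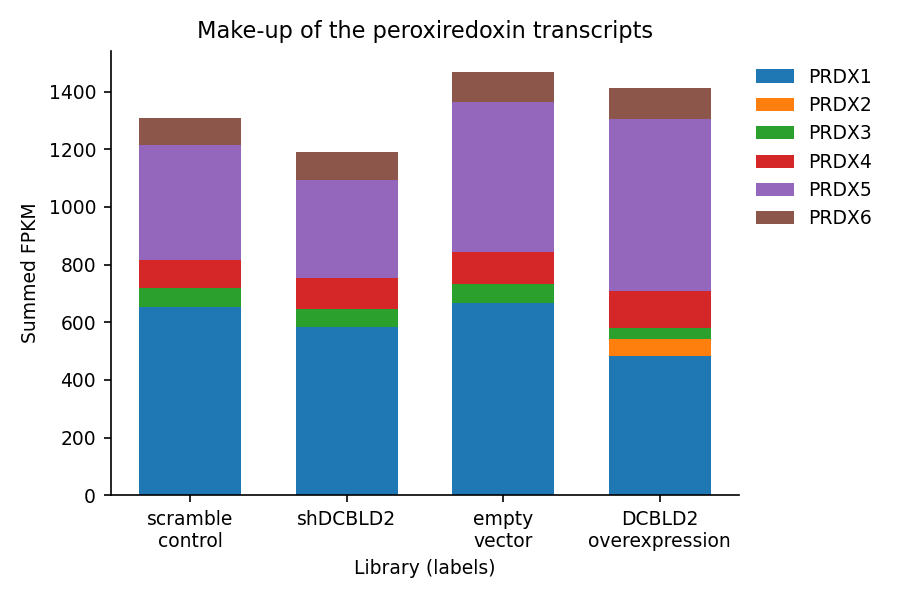
Summed FPKM of the peroxiredoxin genes in each library, with each gene as a segment of the bar. The segment of PRDX2 is visible in the library labelled OE, at 60.6 FPKM, and the segment of PRDX5 is there larger than that of PRDX1.

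PRDX2, a cytosolic peroxiredoxin that is also among the most abundant proteins of red blood cells, showed the widest spread of the family. It had 7 counts in sc, 6 in shDCBLD2, 6 under the empty vector and 2127 for the library labelled OE. Its level was 0.358 CPM (0.144 to 0.737) in sc, 0.278 CPM (0.102 to 0.605) in shDCBLD2 and 0.327 CPM (0.120 to 0.711) with the empty vector, and the 3 intervals overlapped. In the library labelled OE it was 128.9 CPM (123.4 to 134.5), far outside the others. The ratio to the empty vector was 394-fold (181 to 1075), or 8.22 on the log2 scale with a prior count of 2, where it ranked 5 from the top among the 13966 genes. Against sc it was 360-fold (174 to 897). In the comparisons without this library, shDCBLD2 stood at a log2 ratio of -0.27 (-2.21 to 1.43) to sc and the empty vector at -0.10 (-1.98 to 1.67) to sc. These intervals run from 0.216-fold to 2.70-fold and from 0.254-fold to 3.17-fold, so smaller differences were not detectable at these counts.

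By the coordinates in the files, which name no genome build, PRDX2 (ENSG00000167815) lies on the minus strand of chromosome 19 from 12907634 to 12912694. HOOK2, which encodes a linker between microtubules and cargo, covers the whole of this span on the same strand and had 367, 324, 321 and 333 counts in sc, shDCBLD2, the empty vector and the library labelled OE. These counts are not scaled to the library totals. Scaled, the log2 ratio of HOOK2 in the library labelled OE was 0.21 (-0.02 to 0.43) to the empty vector and 0.10 (-0.11 to 0.32) to sc. Both intervals included no change. CTD-2659N19.10, on the opposite strand, had 0 counts in all 4. Among 9 deposited peroxiredoxin pseudogenes the highest count in any library was 6, and together they had 4, 8, 7 and 6 counts in the same order of libraries. In GENCODE 29 transcripts, 4.37% of the 985 stretches of 50 bases in the coding transcripts of PRDX2 also occurred in another gene, namely in the pseudogenes PRDX2P4 and PRDX2P1, and no such stretch was shared with another peroxiredoxin. For PRDX1, PRDX3 and PRDX6 the shared part was 0.434%, 1.23% and 1.18%, and for PRDX4 and PRDX5 it was 0%. How reads with several matches were counted is not given in the sources used here.

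The 250 bases before the transcript start of PRDX2 are shown because this is the member whose transcript was near the limit of detection in 3 libraries and abundant in the last. The RefSeq table (GRCh38.p14) held windows for 4 of the 6 members, PRDX2, PRDX3, PRDX4 and PRDX5, and not for PRDX1 and PRDX6. The window of PRDX2 lies at chr19:12801801-12802050 on the minus strand. It is printed 5′ to 3′ beside that of PRDX3 (chr10:119178813-119179062, minus strand), the member with the lowest ratio in the same comparison. Capitals mark each CG dinucleotide in PRDX2 and the E-box, CACGTG, in PRDX3.
PRDX2: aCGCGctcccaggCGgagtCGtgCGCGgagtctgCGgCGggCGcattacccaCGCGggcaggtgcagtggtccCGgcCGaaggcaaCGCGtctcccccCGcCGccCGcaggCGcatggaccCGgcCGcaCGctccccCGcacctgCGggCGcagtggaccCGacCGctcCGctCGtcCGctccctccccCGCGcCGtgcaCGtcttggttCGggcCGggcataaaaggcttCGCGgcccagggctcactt
PRDX3: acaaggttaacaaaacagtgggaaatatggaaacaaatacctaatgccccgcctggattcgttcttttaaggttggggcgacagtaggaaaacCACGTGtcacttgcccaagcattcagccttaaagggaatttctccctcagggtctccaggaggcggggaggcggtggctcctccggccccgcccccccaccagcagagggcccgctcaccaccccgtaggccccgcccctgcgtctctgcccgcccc

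The PRDX2 window held 38 CG dinucleotides and 75.2% G and C, and 96.7% of the 35116 windows in the table held fewer CG dinucleotides. The PRDX3 window held 13, near the median of 11 over all windows, that of PRDX4 held 25, and the pair of PRDX5 windows held 20 and 28. The E-box CACGTG, searched as a palindrome, occurred once in PRDX3, beginning 157 bases before the start, and once in PRDX4, beginning 83 bases before it, against 6.34% of all windows. The core of the antioxidant response element, TGACNNNGC on either strand, to which NRF2 binds, occurred in none of the 5 windows of members and in 10.9% of all windows. The GC box GGGCGG, on either strand, occurred in all 5 and in 42.6% of all windows, and TATAAA in none of the 5 and in 10.7% of all windows. DNA methylation and factor binding were not measured in these libraries.

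The neighbours of PRDX2 were read against both controls. Of the 22 other genes past the filter within 250 kb of it, 0 were called in the library labelled OE against the empty vector. Their log2 ratios ran from -0.27 to 0.91 with a median of 0.27, against -0.04 over all genes. RNASEH2A, a subunit of the enzyme that removes RNA from DNA hybrids and whose start lies 4.7 kb from that of PRDX2 on the other strand, had 1946 counts under the empty vector and 1671 for the library labelled OE, a log2 ratio of -0.07 (-0.16 to 0.03). JUNB, an AP-1 transcription factor on the other side, had a log2 ratio of 0.13 (0.07 to 0.18) to the empty vector and of 1.33 (1.26 to 1.40) to sc, where it was called, as was SYCE2, a meiotic protein, at 1.38 (0.48 to 2.70) with 27 counts against 11. Against sc 2 of the 22 genes were thus called and the median was 0.52, against -0.04 over all genes. TNPO2, a nuclear import receptor, had the highest ratio to the empty vector at 0.91 (0.80 to 1.01). Around all 6 members 3 of 61 such genes were called against the empty vector, where 6.42% of all genes were called higher and 5.35% lower. These were higher and near PRDX1: MMACHC, a vitamin B12 processing enzyme, ZSWIM5 and TESK2. With sc as control 10 such genes were called, 7 higher and 3 lower, against 8.08% of all genes higher and 8.98% lower, and they lay near PRDX1, PRDX2, PRDX3 and PRDX5. MMACHC overlaps the 3′ end of PRDX1 on the opposite strand and had 128, 107, 95 and 243 counts in sc, shDCBLD2, the empty vector and the library labelled OE, against 12207 to 19084 counts for PRDX1. Whether counting used the strand is not given in the sources used here, so reads of the overlap could belong to either gene.

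**Figure D3:**
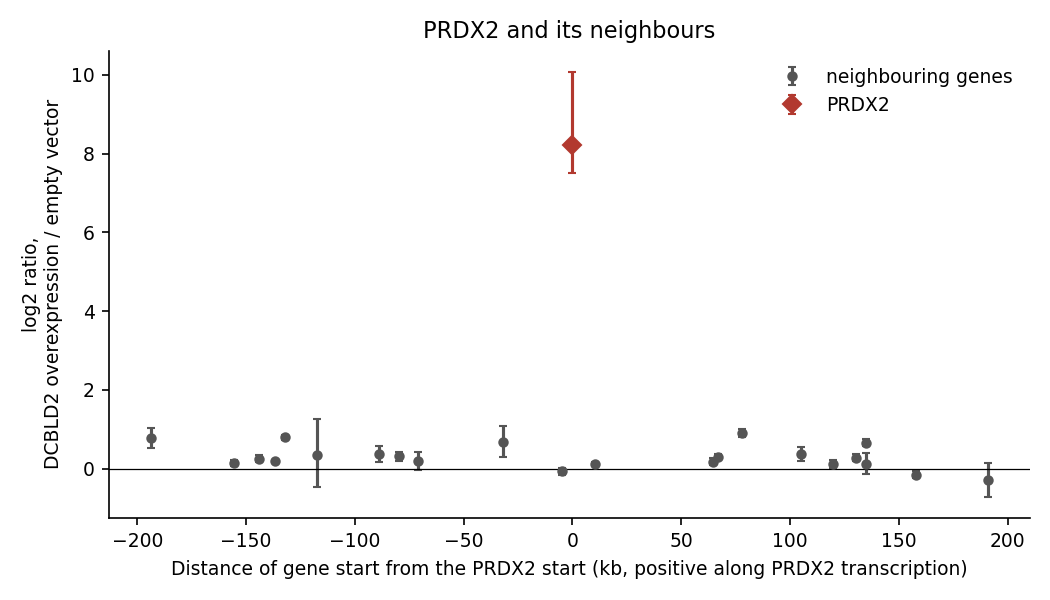
Log2 ratio of PRDX2 (diamond) and of the 22 genes past the filter within 250 kb (points) in the library labelled OE against the empty vector, by distance between gene starts in kb. Bars are 95% counting intervals. The neighbours lie between -0.27 and 0.91 and PRDX2 at 8.22.

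The genes whose pattern over the 4 libraries was most like that of PRDX2 were found by the Euclidean distance between centred log2 CPM values. They include MATK, a tyrosine kinase of blood and neural cells, with 1, 1, 0 and 591 counts in sc, shDCBLD2, the empty vector and the library labelled OE (distance 0.532). IRS4, an insulin receptor substrate, had 0, 0, 1 and 456 counts (distance 0.611), RP6-24A23.7 had 0, 1, 0 and 421 (distance 0.750), and ATAD3B, a mitochondrial membrane ATPase, had 2, 2, 4 and 668 (distance 0.895). Each of these genes was at 4 counts or fewer in 3 libraries. Like PRDX2, they passed the filter only through the library labelled OE, so their likeness rests on their counts there and nothing more is read from it. Over all genes, 24 had a count in the library labelled OE at least 100 times the highest count in the other 3. At least 50 counts there, with at most 3 in each of the others, were found for 66 genes, against 0 genes for each other library by the same rule.

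Markers of other cells were read beside PRDX2. The 3 genes at 9p21 summed to between 0.460 and 1.53 CPM in the other libraries and to 134 CPM in the library labelled OE, where all 3 were called higher. Besides CDKN2A these were MTAP, an enzyme of methionine salvage, with 9, 33, 11 and 104 counts in the same order, and CDKN2B with 0, 0, 0 and 7. CDKN2B did not pass the filter, so its call is not counted in the shares given for all genes. Of 6 red blood cell markers, 0 were above 3 counts in any library, and HBA1, HBA2 and HBB had 0 counts in the library labelled OE, with the list summing to between 0.0927 and 0.358 CPM. Of 8 fibroblast markers, 6 were above 3 counts in the library labelled OE, against 5 in sc and 4 each in shDCBLD2 and the empty vector. COL1A2 and COL3A1 were called higher and 0 lower. The list stood at 79.1 against 45.0 CPM (37.9 to 59.0 CPM in sc and shDCBLD2). Most of this was COL1A1, which was not called, at 63.1 against 35.5 CPM and at 54.0 CPM in shDCBLD2. THY1 went the other way, at -0.33 (-0.70 to 0.02). The intervals of PDGFRB, DCN and LUM also included no change, and FAP was at 0 in all libraries. Of 5 leukocyte markers, PTPRC was at 0 in all libraries, and the list stood at 14.3 CPM with the empty vector and 3.52 to 7.41 CPM in sc and shDCBLD2, with CD14 at 20.1 CPM in the library labelled OE. Of 6 neural markers, NEFM (221 counts against 0) and NEFL (322 against 105) were called higher and INA (13.8 against 30.0 CPM) lower, STMN2 and SYT4 were at 0 in all libraries, and the list stood at 90.1 against 75.9 CPM (91.0 to 126.7 CPM in sc and shDCBLD2). The part of other cells, or of cells without the 9p21 loss, in the level of PRDX2 was not tested, and in bulk RNA fewer cells of a type and less RNA per cell cannot be told apart.

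In the library labelled OE against the empty vector, 1 of the 6 members was called higher and 0 were called lower. Over all 13966 genes, 6.42% were called higher and 5.35% lower by the same rule, and since the family was selected on this comparison nothing is read from its count. The median log2 ratio was 0.10 over the 6 members and -0.04 over all genes. The interval excluded no change for 5 members, of which PRDX2, PRDX4 and PRDX5 were above it and PRDX1 and PRDX3 below.

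PRDX3, the peroxiredoxin of the mitochondrial matrix (ENSG00000165672, chromosome 10, 120927215 to 120938345, minus strand in the files), had the lowest ratio. It stood at 216 CPM in sc, 220 CPM in shDCBLD2, 230 CPM under the empty vector and 124 CPM for the library labelled OE. The first 3 values were close together while the last was far below them. Against the empty vector its log2 ratio was -0.89 (-0.97 to -0.81), and against sc -0.79 (-0.87 to -0.72), so it missed the 2-fold threshold and would pass one of 1.5-fold. The genes with the most similar pattern were DDX50, an RNA helicase (distance 0.0106), and NDUFAF7, an assembly factor of respiratory complex I (distance 0.0328).

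PRDX1, the most abundant cytosolic member (ENSG00000117450, chromosome 1, 45976708 to 45988719, minus strand), followed in the same direction. It stood at 970 CPM in sc, 885 CPM in shDCBLD2, 1036 CPM under the empty vector and 740 CPM for the library labelled OE. Its lowest value was again in the last library, with a log2 ratio of -0.49 (-0.52 to -0.45) to the empty vector and -0.39 (-0.42 to -0.36) to sc. Between shDCBLD2 and sc it was -0.13 (-0.16 to -0.10). Between the controls it was higher under the empty vector, at 0.09 (0.06 to 0.12).

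PRDX5, a member found in several compartments (ENSG00000126432, chromosome 11, 64085560 to 64089283, plus strand), differed from these in the order of its levels. It stood at 349 CPM in sc, 302 CPM in shDCBLD2, 473 CPM under the empty vector and 533 CPM for the library labelled OE. The empty vector library and the library labelled OE were thus above both others. The largest of its differences in the 3 comparisons was between the controls, with a log2 ratio of 0.44 (0.39 to 0.48) for the empty vector against sc, against 0.17 (0.13 to 0.22) in the library labelled OE against the empty vector and -0.21 (-0.26 to -0.16) in shDCBLD2 against sc. With sc as control the library labelled OE stood at 0.61 (0.57 to 0.66), so the size of this difference depended on the control.

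PRDX4, the secretory pathway member (ENSG00000123131, chromosome X, 23682379 to 23704516, plus strand), stood at 181 CPM in sc, 203 CPM in shDCBLD2, 214 CPM under the empty vector and 249 CPM for the library labelled OE. Its log2 ratio was 0.22 (0.16 to 0.28) for the last against the empty vector, 0.16 (0.10 to 0.23) for shDCBLD2 against sc and 0.24 (0.17 to 0.30) between the controls, so that the difference between the controls was as large as the others. PRDX6, which also has phospholipase activity (ENSG00000117592, chromosome 1, 173446405 to 173457946, plus strand), stood at 218, 233, 255 and 261 CPM in the same order of libraries. For PRDX6 the interval in the library labelled OE against the empty vector included no change, at 0.03 (-0.03 to 0.09), but excluded it with sc as control, at 0.26 (0.20 to 0.32), and with upper quartile factors, at 0.15 (0.09 to 0.21). PRDX4 stood at 0.46 (0.39 to 0.52) with sc as control.

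**Figure D4:**
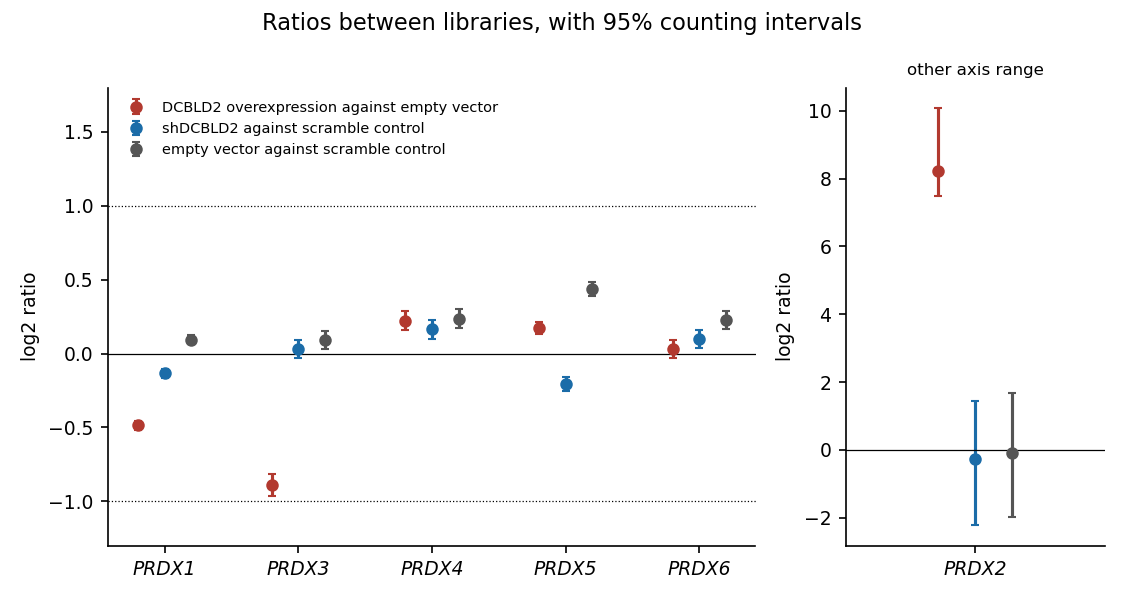
Log2 ratio of each peroxiredoxin in the 3 comparisons, with 95% counting intervals. Dotted lines in the left panel mark the 2-fold threshold, and PRDX2 has its own axis range. PRDX3, at -0.89, lies just inside the threshold, and PRDX2, at 8.22, is the only member beyond it.

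In shDCBLD2 against sc, 0 of the 6 members were called, where 1.16% of all genes were called higher and 5.62% lower. Their median log2 ratio was -0.05, against 0.01 over all genes. PRDX4 at 0.16 and PRDX6 at 0.10 were the highest and PRDX2 at -0.27 the lowest, with the wide interval already given. PRDX3 was at 0.03 (-0.03 to 0.09). Between the controls, the empty vector against sc, 0 of 6 were called, against 2.22% of all genes called higher and 1.89% lower, with a median of 0.16 over the members and -0.01 over all genes. In this comparison all members but PRDX2 were higher with an interval that excluded no change.

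Other genes of hydrogen peroxide metabolism were read from 7 lists that hold 50 genes, of which all were found (2 under another symbol) and 39 passed the filter. In the library labelled OE against the empty vector, 4 of the 39 were called higher and 2 lower, beside the 6.42% and 5.35% of all genes, with a median of -0.01. In the thioredoxin system the ratio was below 0 for 7 of 9 genes, against 52.9% of all genes, with a median of -0.41; the interval lay below 0 for 6 of them, and the 1 call was higher. Against sc the ratio was below 0 for 5 of the 9, against 52.1% of all genes, with a median of -0.19. Of all 39 redox genes, 4 were called higher and 3 lower against sc, beside 8.08% and 8.98% of all genes. TXNRD1, the cytosolic thioredoxin reductase, was at 1143 CPM in sc, 1074 CPM in shDCBLD2, 895 CPM under the empty vector and 449 CPM for the library labelled OE, a log2 ratio of -0.996 (-1.04 to -0.96) to the empty vector, just short of the threshold, and of -1.35 (-1.39 to -1.31) to sc, past it. TXN, cytosolic thioredoxin, was at 378, 388, 392 and 235 CPM, a ratio of -0.74 (-0.80 to -0.68). TXN2, the mitochondrial thioredoxin, was at 0.26 (0.16 to 0.35). The called gene was TXNIP, an inhibitor of thioredoxin, which had 28 counts in sc, 1 in shDCBLD2, 90 under the empty vector and 533 for the library labelled OE, and it was higher by 2.69 (2.39 to 3.06) on the log2 scale.

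Among the genes that repair or regulate peroxiredoxins, SRXN1 is the sulfiredoxin that restores overoxidized ones. It was at 104 CPM in sc, 110 CPM in shDCBLD2, 79.6 CPM under the empty vector and 61.9 CPM for the library labelled OE. Its log2 ratio in the last was -0.36 (-0.48 to -0.25) to the empty vector and -0.75 (-0.86 to -0.64) to sc. For the empty vector against sc it was -0.39 (-0.49 to -0.29). SESN2, a stress-induced sestrin, was called higher at 1.77 (1.58 to 1.97) to the empty vector, from 15.4 to 52.7 CPM, and at 2.10 (1.90 to 2.32) against sc. SESN3 had 6, 1, 3 and 56 counts and did not pass the filter.

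The glutathione side went both ways. GPX2, the epithelial glutathione peroxidase, was called higher at 1.96 (1.89 to 2.04) and GPX3, the secreted form, at 1.62 (1.36 to 1.91). GPX2 stood at 340 CPM in sc, 101 CPM in shDCBLD2, 99.3 CPM under the empty vector and 387 CPM for the library labelled OE, so that sc was close to the last library and the difference depended on the control. GCLM and GCLC, the subunits of the enzyme that limits glutathione synthesis, were the called lower genes, at -1.28 (-1.42 to -1.15) and -1.02 (-1.13 to -0.91), and at -1.59 and -1.26 against sc. GCLC lay at the threshold and lost its call against the empty vector when only library totals were used. GSTP1, a partner of PRDX6 in its reduction by glutathione, was at 0.09 (0.06 to 0.11). Against the empty vector, 0 of 4 catalase and superoxide dismutase genes and 0 of 5 sources of hydrogen peroxide were called in the remaining lists. Of 4 partners of PRDX4 in the endoplasmic reticulum, 0 were called there. With sc as control, CYBA, on the list of peroxide sources, was called higher at 1.26 (1.21 to 1.31), from 247 to 592 CPM. Its ratio to the empty vector was 0.67 (0.63 to 0.72). CAT was at -0.53 (-0.69 to -0.37) to the empty vector, SOD1 at -0.47 (-0.54 to -0.40) and SOD2, of mitochondria, at 0.50 (0.42 to 0.58).

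**Figure D5:**
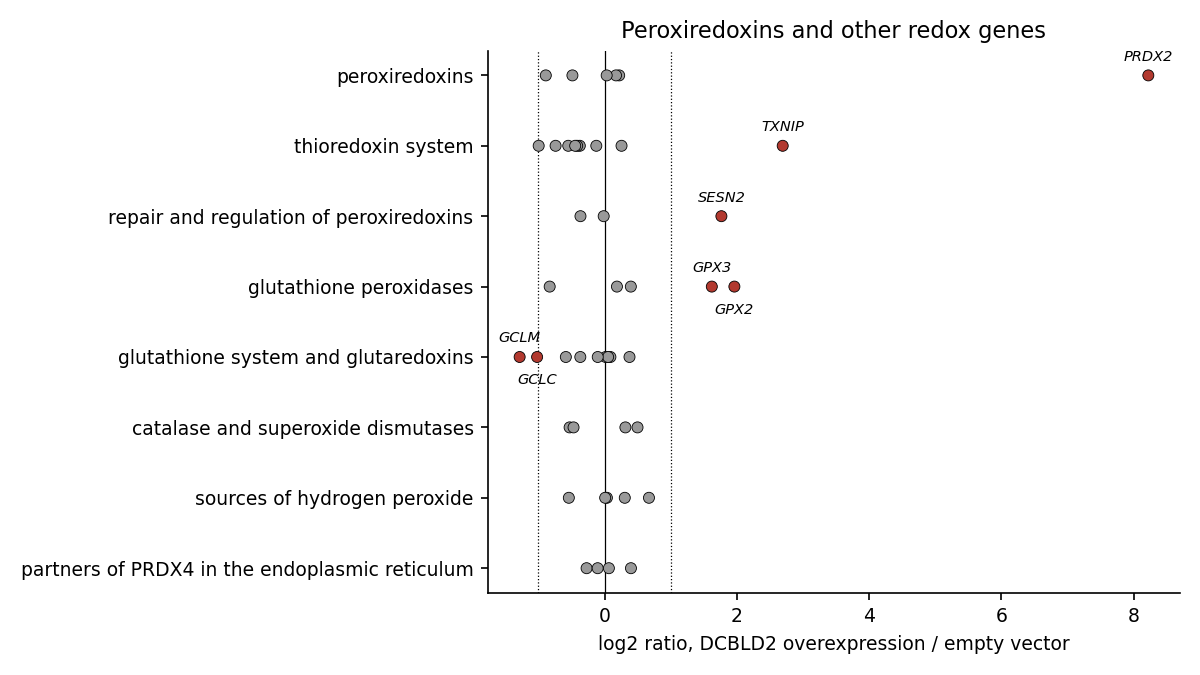
Log2 ratio in the library labelled OE against the empty vector for the peroxiredoxins and the 39 other redox genes past the filter, grouped by list. Red points are called genes, with their names, and dotted lines mark the 2-fold threshold. PRDX2 lies at 8.22, and the next highest gene shown is TXNIP at 2.69.

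In shDCBLD2 against sc, 0 of the 39 redox genes were called higher and 4 lower, beside 1.16% and 5.62% of all genes, with a median of -0.09. Among these were TXNIP at -3.34 (-10.30 to -2.35), from 28 counts to 1, and GPX2 at -1.74 (-1.82 to -1.68). The others were DUOX1, a peroxide-generating oxidase, at -1.48 (-2.73 to -0.66), from 34 counts to 12, and GLRX, a cytosolic glutaredoxin, at -1.31 (-1.47 to -1.16). Of the thioredoxin genes that stood lowest in the other comparison, TXNRD1 was at -0.09 (-0.12 to -0.06) and TXN at 0.04 (-0.01 to 0.08). Between the controls TXNIP was called higher with the empty vector at 1.70 (1.15 to 2.44) and GPX2 lower at -1.77 (-1.85 to -1.70), so the levels of both also differed between the control libraries.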

How the data were processed

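RNA from 4 A549 libraries, 1 per condition, was analysed. The authors deposited raw read counts per gene, beside FPKM values that are scaled to gene length and depth. Each library's own file held the same values as the combined table. Per the labels, libraries were made from poly(A) RNA. The aligner, counter and strand setting are not given in the sources used here. The submitters' processing notes name only mm9, a mouse build, whereas the gene identifiers are human. No coordinates were taken between builds.

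Counts were scaled with TMM factors (edgeR 4.0.16, R 4.3.3). Intervals came from scipy 1.17.1 under Python 3.11.15, tables were handled in pandas 2.3.3 (numpy 2.4.6), and plots were drawn by matplotlib 3.10.9. All log2 ratios used a prior count of 2; folds and intervals used none. Summaries used genes with a mean of at least 1 CPM, which excludes genes low everywhere and keeps a gene high in 1 library. Members and gene lists were chosen with earlier results of these data known; members' calls, neighbours within 250 kb and the 5 most similar genes per member followed fixed rules, and only some are printed. The gene nearest in pattern to PRDX2 is not reported here. Alternatives were DESeq2 1.42.0 size factors, upper quartile factors, library totals, prior counts of 0.5 and 5, the other control, equal depth, other filters, a 1.5-fold threshold and other windows.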

Additional observations from a re-analysis of the deposited data

How the results depend on the processing

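The log2 ratio of PRDX2 in the library labelled OE lay between 7.77 and 8.51 under 7 alternatives, inside its counting interval. Its ratio in shDCBLD2 against sc lay between -0.34 and 0.02 and that between the controls between -0.15 and 0.05, so neither has a stable sign. A 1.5-fold threshold raised the members called against the empty vector from 1 to 2, and the redox genes called to 11 from 6, to 7 from 4 in shDCBLD2 against sc and to 6 from 2 between the controls. With library totals only, 5 redox genes were called against the empty vector in place of 6, GCLC losing its call. A filter at a mean of 5 CPM left 3 redox genes called in place of 4 in shDCBLD2 against sc. With sc as control, 10 neighbouring genes were called in place of 3. The calls of members were the same under the scalings, prior counts, equal depth and other control.

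For the other 5 members, 100 values were recomputed; 21 left the counting interval and 4 changed sign, all in shDCBLD2 against sc. With the empty vector as control there, PRDX3 was at -0.07, PRDX4 at -0.07 and PRDX6 at -0.13, and PRDX3 was at -0.004 with library totals. Upper quartile factors moved the median of all genes by 0.12 in the library labelled OE against the empty vector and the members with it, to -0.36 for PRDX1, -0.77 for PRDX3 and 0.15 for PRDX6, whose interval then excluded no change. With 6 or 7 counts of PRDX2 in 3 libraries, changes among these could not be resolved. The replicate error of every value is unknown, since each condition has 1 library. No paired analysis was possible because no condition has a second library, and none could be left out in turn.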
